A study of Mus musculus with 6 samples.

Results

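The genes described here are 10 regulators of the BCL2 family, which decides at the outer membrane of the mitochondrion whether a cell enters apoptosis. They were taken by gene name from a table of 55357 genes: the anti-apoptotic Bcl2, Bcl2l1 and Mcl1, the pore-forming effectors Bax and Bak1, and the BH3-only genes Bbc3, Pmaip1, Bcl2l11, Bid and Bmf. All 10 were present, 1 entry each, and all passed the filter of a mean of at least 10 normalized counts. RNA-seq was performed on primary cortical astrocytes from C57BL/6 mouse embryos. In the KE group, 3 cultures were transfected with a plasmid in which the CMV promoter drives FLAG-tagged BRAF K499E, a constitutively active form of the kinase, and were harvested 48 hours later. In the NT group, 3 cultures of naive genotype received no plasmid, and no astrocytes carrying an empty vector or BRAF WT are analysed here, so transfection and BRAF KE cannot be told apart. The CMV promoter is not restricted to astrocytes, and nothing in the labels says that the 3 cultures of a group came from separate preparations, so p-values measure the spread between these cultures, which may be technical.

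In a healthy cell the anti-apoptotic proteins hold BAX and BAK in check. BH3-only proteins carry signals of damage, stress or lost growth factors, bind the anti-apoptotic proteins and, in some cases, activate BAX and BAK directly. Pores formed by BAX and BAK then release cytochrome c, which assembles the apoptosome and starts the caspases. ERK signaling, which BRAF feeds, is known to act on several members after translation, for example by promoting the turnover of BIM, the product of Bcl2l11, which RNA levels do not show.

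Braf, the transfected gene, checked the labels: its normalized counts were 35025, 34933 and 40978 in KE replicates 1, 2 and 3 and 925, 811 and 946 in NT replicates 1, 2 and 3. The cultures expressed the astrocyte genes Gfap (30696 to 32167 in KE, 16537 to 17745 in NT) and Aldh1l1 (20678 to 22229 and 12393 to 13343), while the astrocyte gene S100b was low in both groups, at 11.8 to 22.6 and 21.7 to 31.5. They were not astrocytes alone. All 20 genes of a microglia list were lower in KE, with a summed level of 6882 to 9632 normalized counts in KE and 59328 to 70602 in NT, none of the 20 being at 0, and all 8 genes of a list for cycling cells were lower, with sums of 25943 to 27383 and 60507 to 63246. All 19 measured genes of an interferon response list were higher, with a median log2FC of 3.19. In bulk RNA, fewer cells of a type and less RNA per cell cannot be told apart. The part of these shifts in the results on the BCL2 family was not tested, except where values are given.

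Of the 10 BCL2 family genes, 4 were upregulated in BRAF KE–transfected astrocytes, 2 were downregulated and 4 were not called. The 4 genes that rose, by 1.54-fold to 1.77-fold, were the anti-apoptotic Bcl2l1 and the BH3-only Bid, Bbc3 and Pmaip1. Bcl2 and Mcl1 were lower by small margins, and the effectors Bax and Bak1 were not called. The test was limma on log2(normalized count + 1) across all 15280 tested genes, and a gene was called at a Benjamini-Hochberg adjusted p-value under 0.05. These counts do not set the family apart: 51.3% of all tested genes were called, 25.3% upregulated and 26.0% downregulated. The KE cultures all lay on one side of the NT cultures in 6 of the 10 genes, against 59.9% of all tested genes. The median log2FC was -0.06 over the 10 genes and 0.00 over all tested genes. An exact permutation test on 1 gene is limited by n = 3 per group to a smallest two-sided p of 0.1.

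**Figure D1:**
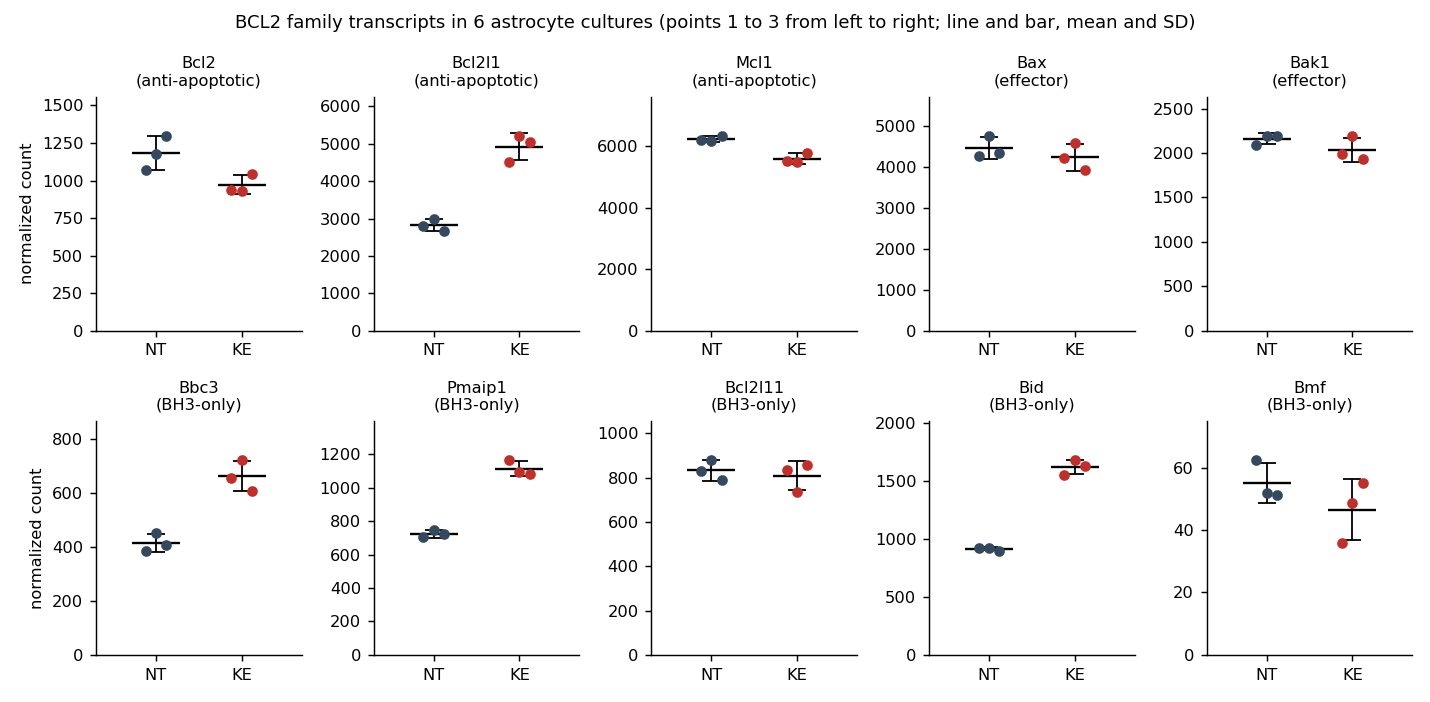
Normalized counts of the 10 BCL2 family genes (vertical axes from 0, each with its own scale) in 3 NT and 3 KE cultures; points are cultures, horizontal lines means and bars SD. Bcl2l1, Bid, Bbc3 and Pmaip1 have all KE points above all NT points, Bcl2 and Mcl1 all below, and the other 4 genes overlap.

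Bcl2l1 lies on chromosome 2 from 152622582 to 152673655 (GRCm39, as are all positions here; minus strand) and encodes BCL-XL, a major survival protein of neural cells. Its normalized counts were 4515, 5220 and 5037 in KE and 2790, 2991 and 2670 in NT. The lowest KE culture thus lay well above the highest NT culture. The mean rose from 2817 ± 162 in NT to 4924 ± 366 in KE (SD, n = 3), or 1.75-fold, with a log2FC of 0.80 (standard error 0.07, limma adjusted p = 3.5e-06). The gene also yields a short, death-promoting form by splicing, and the table holds 1 value per gene, so forms could not be separated. Gencode lists 23 coding transcripts for it.

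Mcl1, on the plus strand of chromosome 3 from 95566026 to 95570487, encodes a short-lived survival protein. Its values were 5527, 5485 and 5797 in KE and 6209, 6185 and 6352 in NT, without overlap. The difference was small, with a log2FC of -0.16 (standard error 0.05, limma adjusted p = 0.025). Bcl2, on the minus strand of chromosome 1 from 106465908 to 106642060, is the founding member of the family. It stood at 939, 931 and 1045 in KE and 1072, 1176 and 1299 in NT. The highest KE culture and the lowest NT culture were close to each other, and the log2FC was -0.28 (standard error 0.09, limma adjusted p = 0.018). The calls of Bcl2 and Mcl1 did not hold under all settings. Without a variance trend their adjusted p-values from limma were 0.052 and 0.061, and leaving out KE replicate 1, KE replicate 2 or NT replicate 3 also ended both calls, with adjusted p-values of 0.056 to 0.076 for Bcl2 and 0.062 to 0.082 for Mcl1. Without NT replicate 1 or 2 the call of Mcl1 alone was lost, at 0.051 and 0.0501.

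The effectors, which form the pores, were not called. Bax, on the minus strand of chromosome 7 from 45111015 to 45116325, had 4228, 4580 and 3920 normalized counts in KE and 4260, 4771 and 4355 in NT. The groups overlapped, and the log2FC was -0.07 with a 95% interval of -0.23 to 0.08 (limma adjusted p = 0.40). Bak1, on the minus strand of chromosome 17 from 27238784 to 27247983, had 1988, 2187 and 1933 in KE and 2089, 2196 and 2196 in NT, a log2FC of -0.09 with an interval of -0.23 to 0.06 (limma adjusted p = 0.28). Changes of the size seen for Bcl2l1 lie outside both intervals. In Gencode, Bax overlaps the protein-coding Gm45808 on its own strand, whose mean was 16.9 in KE and 7.43 in NT, and Bak1 overlaps Ggnbp1 (36.5 and 21.8) and Gm50253 (55.5 and 33.0) on the opposite strand, all 3 low beside Bax and Bak1 and not called.

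Among the BH3-only genes, Bid rose most. Its product is cut by caspase-8 and links death receptors to the mitochondrion. Bid, on the minus strand of chromosome 6 from 120862525 to 120894171, was 1556, 1685 and 1631 in KE and 921, 927 and 902 in NT. The means of 1624 ± 64.5 (SD, n = 3) and 917 ± 13.5 (SD, n = 3) differ by 1.77-fold, with a log2FC of 0.82 (standard error 0.06, limma adjusted p = 1.6e-06). The locus overlaps Bcl2l13 on the opposite strand. Bcl2l13 was not called, with a log2FC of -0.03. Bcl2, Bcl2l1, Bax, Bcl2l11 and Bid also overlap noncoding gene models, and how reads were divided at any of these loci was not tested.

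Bbc3 encodes PUMA and Pmaip1 encodes NOXA, BH3-only proteins that are classic products of p53 target genes. Bbc3, on the plus strand of chromosome 7 from 16042318 to 16052130, was 656, 721 and 607 in KE and 386, 450 and 405 in NT, so that every KE culture exceeded every NT culture. Its log2FC was 0.67 (standard error 0.10, limma adjusted p = 1.7e-04), a gain of 1.60-fold. Pmaip1, on the plus strand of chromosome 18 from 66591604 to 66598636, was 1166, 1096 and 1079 in KE and 703, 749 and 721 in NT, again without overlap. It gained 1.54-fold, with a log2FC of 0.62 (standard error 0.07, limma adjusted p = 3.0e-05).

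The remaining BH3-only genes were not called. Bcl2l11, which encodes BIM and lies on the plus strand of chromosome 2 from 127967958 to 128004476, was 834, 736 and 857 in KE and 830, 880 and 788 in NT. Its log2FC was -0.04 with a 95% interval of -0.23 to 0.14 (limma adjusted p = 0.69), and it turned to 0.02 without KE replicate 2. The locus overlaps the protein-coding Gm74510 on the same strand, which was not analysed here. Bmf, on the minus strand of chromosome 2 from 118359238 to 118380177, was the rarest member, at 35.8, 48.6 and 55.0 in KE and 62.4, 51.7 and 51.1 in NT. Its interval reached from -0.75 to 0.24 (log2FC -0.26, limma adjusted p = 0.36), so neither a fall nor a modest rise was distinguishable from no difference at this expression level.

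**Figure D2:**
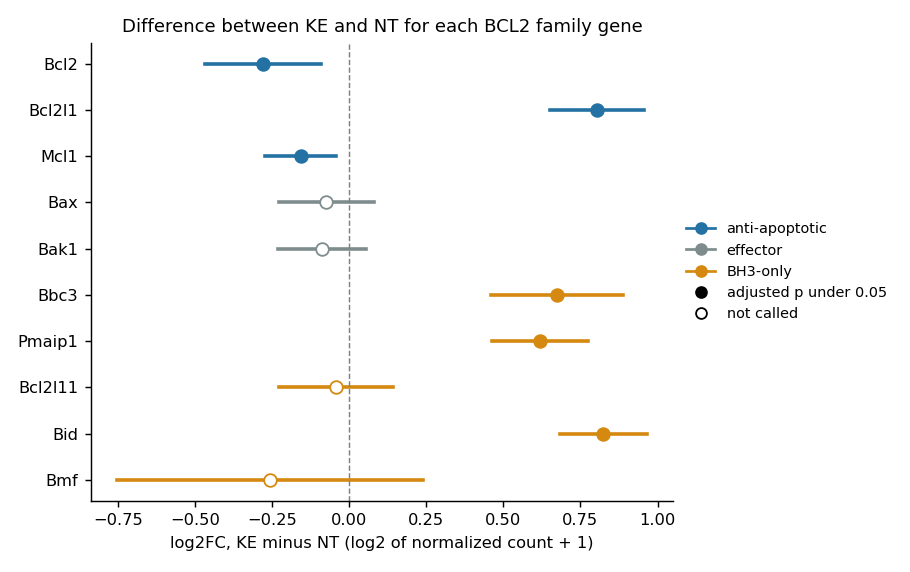
Difference between KE and NT for each gene on the horizontal axis (log2FC of the normalized count plus 1), with 95% limma intervals as lines, colored by role. Filled points are called; the intervals of Bcl2l1, Bid, Bbc3 and Pmaip1 lie wholly above 0, and that of Bmf is the widest.

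Because the proteins of the members act by binding one another, ratios of their RNA were taken within each culture, which removes the scaling of the culture. An RNA ratio does not give the ratio of the proteins. In total 12 ratios were computed, and the groups were apart in 7 of them, each of which holds a gene called higher. The share over other gene pairs was not computed, and 59.9% of single tested genes had groups apart. Each comes from genes already described and adds no independent measurement, and no p-value is given. The normalized counts of Bcl2l1 over those of Bax were 1.07, 1.14 and 1.28 in KE and 0.655, 0.627 and 0.613 in NT, with every KE culture above every NT culture. These counts are not divided by length, so the size of the ratio does not order the genes' levels. Bcl2l1 over Mcl1 was 0.879 ± 0.068 in KE and 0.451 ± 0.032 in NT (SD, n = 3). The ratio of Mcl1 to Pmaip1, whose product NOXA binds MCL1, was 4.74, 5.01 and 5.37 in KE and 8.84, 8.25 and 8.81 in NT. Bcl2l11 over Bcl2l1 was 0.185, 0.141 and 0.170 in KE and 0.297, 0.294 and 0.295 in NT, all 3 NT cultures lying close together.

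In the other 5 ratios the groups overlapped. Bid over Bcl2l1 was 0.345, 0.323 and 0.324 in KE and 0.330, 0.310 and 0.338 in NT, although both genes were called higher. Bbc3 over Bcl2l1 was 0.121 to 0.145 in KE and 0.138 to 0.152 in NT, and Pmaip1 over Bcl2l1 was 0.210 to 0.258 and 0.251 to 0.270. Bcl2 over Bax and Mcl1 over Bak1 overlapped as well.

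**Figure D3:**
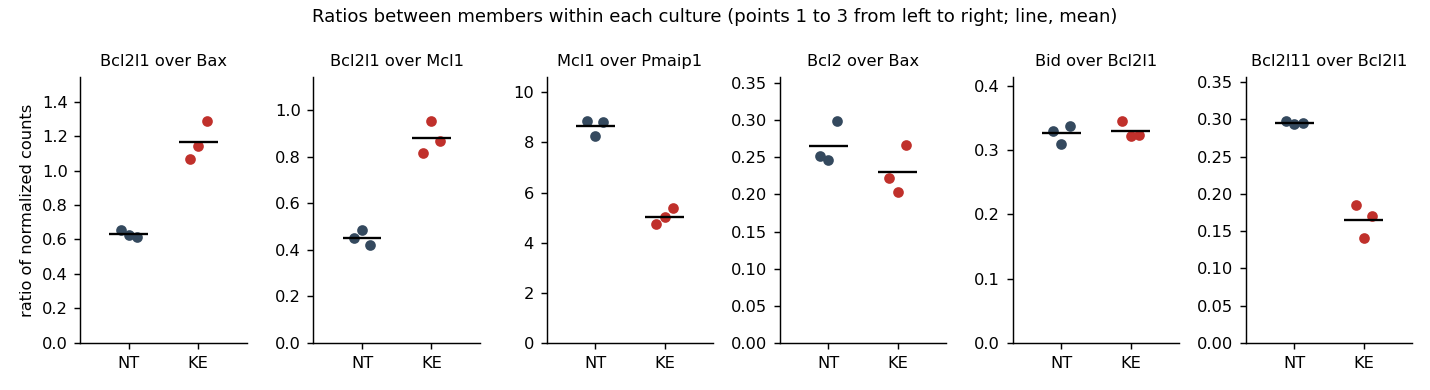
Ratios of normalized counts of gene pairs within each culture (vertical axes from 0), with points for cultures and lines for means. Bcl2l1 over Bax and over Mcl1 is higher in all 3 KE cultures, Mcl1 over Pmaip1 and Bcl2l11 over Bcl2l1 are lower, and Bid over Bcl2l1 and Bcl2 over Bax overlap.

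To compare levels between genes, normalized counts were divided by the length of each gene's canonical Gencode transcript in kilobases. These lengths run from 976 bases for Bax to 7247 for Bcl2, and other transcripts of a gene would give other values. On this scale Bax was the most abundant member in both groups, at 4347 ± 338 per kilobase in KE and 4572 ± 278 in NT (SD, n = 3), followed by Mcl1 at 1605 ± 48.5 and 1790 ± 25.9. Bcl2l1 was below Bax in every culture. Bmf was the lowest, at 9.99 ± 2.11 and 11.8 ± 1.37. In NT, Bcl2l1 (818 to 916) overlapped Bak1 (875 to 920), and Bcl2, Bcl2l11 and Bbc3 overlapped one another between 144 and 179. In KE, Bcl2l1 (1383 to 1599) lay above Bak1 (810 to 916) and overlapped Mcl1 (1571 to 1661), and Bbc3 (226 to 269) lay above Bcl2l11 (146 to 170) and Bcl2 (129 to 144). The other neighbors in each order did not overlap. Summed per kilobase over each role, the 5 BH3-only genes came to 1562 ± 25.6 in KE and 1012 ± 31.6 in NT, the 3 anti-apoptotic genes to 3247 ± 133 and 2816 ± 34.6, and the effectors to 5200 ± 392 and 5477 ± 296 (SD, n = 3). The BH3-only sum was 1.54 times and the sum of these 3 anti-apoptotic members 1.15 times the NT level. Among the 3, only Bcl2l1 was higher in KE. Pro-survival family genes outside the members are not in the sum. Of these, Bcl2l2 was higher (log2FC 0.46), and Bcl2a1a, Bcl2a1b and Bcl2a1d were lower (-3.33, -3.41 and -3.04).

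**Figure D4:**
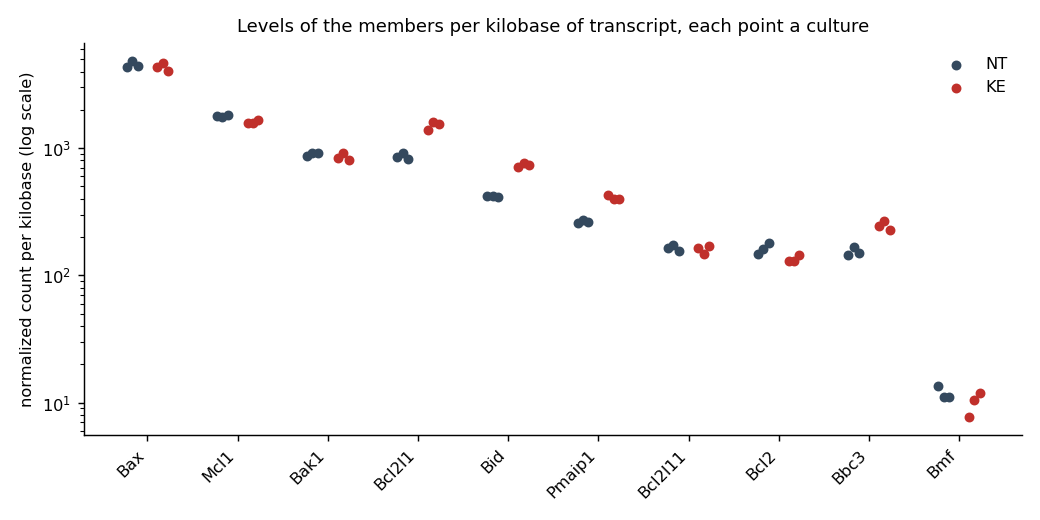
Levels of the members in normalized counts per kilobase of the canonical transcript (vertical log axis), ordered by the NT mean, with 1 point per culture. Bcl2l1, Bid, Pmaip1 and Bbc3 move up in KE while Bax stays first and Bmf last.

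Bcl2l1, Bid, Bbc3 and Pmaip1 were called higher, as were 25.3% of all tested genes, and whether they share a regulator was not tested. For each member, the 250 bases before the canonical start were read from GRCm39 and searched on both strands for 6 motifs. Those of Bbc3, Bid and Bcl2l1 are shown as 3 of the 4 genes that rose, Pmaip1 being described by position only, and that of Bax because it holds a p53 half-site and the gene was not called. Each runs 5′ to 3′ toward the start, at chr7:16042421-16042670 (plus strand), chr6:120893828-120894077 (minus), chr2:152673274-152673523 (minus) and chr7:45116326-45116575 (minus). The windows of Bbc3, Bid and Bcl2l1 lie inside the annotated genes, which begin before the canonical start, so sequence before other starts was not searched. Capitals mark motif matches.
Bbc3: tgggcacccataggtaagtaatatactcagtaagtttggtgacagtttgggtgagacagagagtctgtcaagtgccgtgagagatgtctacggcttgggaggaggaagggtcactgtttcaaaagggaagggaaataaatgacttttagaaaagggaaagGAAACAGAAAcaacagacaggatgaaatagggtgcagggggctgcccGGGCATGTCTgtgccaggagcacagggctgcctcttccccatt
Bid: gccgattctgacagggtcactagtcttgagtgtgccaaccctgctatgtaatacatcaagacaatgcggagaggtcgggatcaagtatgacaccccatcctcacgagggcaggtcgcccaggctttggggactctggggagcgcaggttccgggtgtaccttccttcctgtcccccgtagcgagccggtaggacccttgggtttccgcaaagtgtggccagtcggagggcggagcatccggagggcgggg
Bcl2l1: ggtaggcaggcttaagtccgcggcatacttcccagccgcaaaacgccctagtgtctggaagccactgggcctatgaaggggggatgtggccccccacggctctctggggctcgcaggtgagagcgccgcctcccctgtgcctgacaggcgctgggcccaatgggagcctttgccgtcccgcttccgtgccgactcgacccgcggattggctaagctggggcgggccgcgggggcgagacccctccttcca
Bax: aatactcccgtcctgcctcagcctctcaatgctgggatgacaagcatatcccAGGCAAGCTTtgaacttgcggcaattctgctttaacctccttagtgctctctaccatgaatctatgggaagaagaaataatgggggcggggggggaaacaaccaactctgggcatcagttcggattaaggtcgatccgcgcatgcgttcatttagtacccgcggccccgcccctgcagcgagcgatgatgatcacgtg

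In the Bbc3 window, the core of the interferon-stimulated response element, written as GAAA, any 2 bases and GAAA, lies from position -90 to -81, and a p53 half-site, known by its purine and pyrimidine consensus, from -43 to -34, where -1 is the last base before the start. Such half-sites also lie in the windows of Bax (-198 to -189) and Pmaip1 (-103 to -94), and 6.69% of the windows of 21757 protein-coding genes hold one. The interferon core is in 3.32% of all windows and, of the 10 members, in Bbc3 only. The FOXO site TGTTTAC was found before Bcl2l11 and Bak1, and in 2.72% of all windows. The letters of an AP-1 site (TGANTCA, in 6.18% of windows), an interferon gamma-activated site (TTCNNNGAA, 7.70%) and the core of a C/EBP-ATF element (TGATGNAA, 3.39%) were in none of the 10. The motifs do not share letters in these windows. The windows of Bid and Bcl2l1 held none of the 6, which says only that these letters are not in these 250 bases. A match likewise says only that the letters are present, and binding was not measured.

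Around the 10 members, 68 genes in 7 lists of the same pathway were tested, of which 25 were upregulated, 19 downregulated and 24 not called. The share called was 64.7%, next to 51.3% of all tested genes. Every list count below is to be read beside 25.3% upregulated and 26.0% downregulated among all tested genes. No list was tested as a set. In the remaining BCL2 family, 11 of 15 genes passed the mean filter, with 3 upregulated, 5 downregulated and a median log2FC of -0.11. The pro-survival Bcl2l2, which encodes BCL-W, was upregulated, with 1647, 1528 and 1575 normalized counts in KE and 1226, 1166 and 1068 in NT (log2FC 0.46), and so were Bnip3 (0.42) and Bnip3l (0.24), known for roles in mitophagy. The largest changes were those of the pro-survival Bcl2a1b, Bcl2a1a and Bcl2a1d, known from myeloid cells, with log2FC of -3.41, -3.33 and -3.04. As these genes are near-identical in sequence, how reads were shared out among them is uncertain, and they moved with the microglia list, whose median log2FC was -3.40. Bok, a BAX-like effector, was also lower, at 98.7, 121 and 92.7 in KE and 228, 251 and 233 in NT (log2FC -1.19), as was Bcl2l12 (-0.45), while Bad, Bcl2l13 and the low Hrk were not called.

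Downstream of the mitochondrion, 1 of 11 genes of the apoptosome and caspase list was upregulated, 4 were downregulated and 6 were not called, with a median log2FC of -0.10. Among the downregulated genes were Casp2 (-0.43) and Aifm1 (-0.43), which encodes the apoptosis-inducing factor. Apaf1, the scaffold of the apoptosome, had a log2FC of -0.21. Cycs, which encodes cytochrome c, and Casp9 were not called (-0.13 and -0.04). Of the inhibitors of apoptosis, 8 of 9 were tested, none was upregulated and 5 were downregulated, with a median log2FC of -0.60. Birc2, Birc3 and Xiap were not called (0.16, 0.01 and -0.01). The falls were largest for Naip6, Naip5 and Naip2 (-2.96, -2.59 and -2.56), similar copies of a gene active in macrophages, and these too moved with the microglia list. Birc5, known for its role in mitosis, fell by 0.96 on the log2 scale, beside a median of -1.08 for the list of cycling cells.

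Upstream, 8 of 12 genes of the p53 axis were upregulated, beside 25.3% of all tested genes. Of the rest, 1 was downregulated and 3 were not called, and the median log2FC of the list was 0.43. Mdm2, the p53 target that limits p53, was 6439, 6522 and 6782 in KE and 3273, 3308 and 2978 in NT (log2FC 1.05). Phlda3, Sesn2 and the cell cycle inhibitor Cdkn1a followed with 0.84, 0.78 and 0.60. Trp53 itself was not called (0.12), and Mdm4 was lower (-0.28). Not every target of the list moved, as Zmat3 was at -0.02.

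A list of transcription factors known to act on BH3-only genes, which also holds the stress gene Trib3, a pseudokinase and no transcription factor, had 6 of 9 genes upregulated and 1 downregulated, with a median log2FC of 0.44. The stress factor Ddit3, which encodes CHOP, was 2261, 2366 and 2309 in KE and 484, 585 and 422 in NT (log2FC 2.23). Trib3 and Atf3, also of the stress response, had log2FC of 2.04 and 1.55, Atf4 and Jun 0.46 and 0.44, and Foxo3 0.23. E2f1 was lower (-0.47). Of 8 genes whose products act on MCL1, BIM or BAD protein, 3 were upregulated and 2 downregulated, with a median log2FC of 0.02. These were the low Trim17 (1.73), the cochaperone gene Bag3 (0.60) and Btrc (0.30) on the one side, and Rps6ka1 (-1.06), a kinase downstream of ERK, and Huwe1 (-0.47), a ubiquitin ligase of MCL1, on the other. Usp9x and Fbxw7 were not called.

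In the extrinsic arm, which reaches the mitochondrion through BID, 4 of 9 genes were upregulated, 1 was downregulated and 4 were not called, with a median log2FC of 0.11. Tnfsf10, the death ligand TRAIL and a known interferon target, was 304, 335 and 340 in KE and 29.6, 50.7 and 19.9 in NT (log2FC 3.35). Its receptor Tnfrsf10b was 1605, 1665 and 1748 in KE and 860, 874 and 923 in NT (0.92), and the death receptor Fas had a log2FC of 0.42. Tnfrsf1a rose by 0.26. Fadd, the adaptor, was lower (-0.22), and Casp8, which cuts BID, and its inhibitor Cflar were not called (-0.15 and 0.11).

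**Figure D5:**
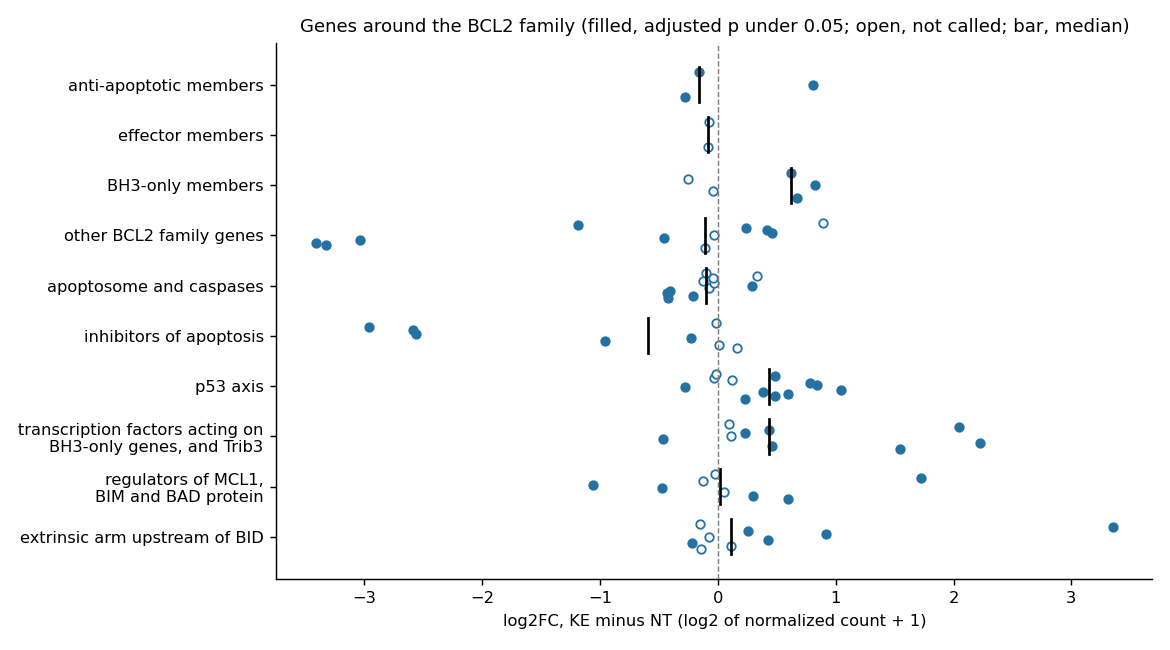
Log2FC of KE minus NT (horizontal axis) for the members by role and for 7 lists of related genes, each point a tested gene and each bar the median. The p53 axis and the list of transcription factors and Trib3 lie mostly to the right, and the low points of the BCL2 family and inhibitor lists are the Bcl2a1 and Naip copies.

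Other cell types were read from further marker lists. Of 11 tested astrocyte genes, 7 were upregulated and 2 downregulated (median log2FC 0.38), with sums of 195735 to 201788 normalized counts in KE and 143565 to 152402 in NT. Neuron markers were called in both directions, 2 of 8 up and 2 of 8 down, with sums of 6904 to 7378 and 8898 to 9612. Oligodendrocyte lineage markers were mostly lower, 7 of 9, with 1 upregulated and 1 not called, and sums of 29787 to 34867 and 38171 to 38399. Vascular and mesenchymal markers were split 3 to 3 among 9, with sums of 2765 to 2905 and 3043 to 3928. Bcl2l1, Bid, Bbc3 and Pmaip1 rose while all listed microglia and cycling genes and most oligodendrocyte lineage genes tested were lower. Most of the tested astrocyte genes were higher. Which cells carried the transcripts was not measured.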

How the data were processed

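RNA from 6 cultures was sequenced from TruSeq stranded mRNA libraries. The authors deposited a normalized signal per gene, Salmon estimates divided by a DESeq2 size factor of each culture. The submitters' processing notes name Trim Galore, STAR, Salmon and DESeq2 and list GRCh38, while the supplemental methods give GRCm39 for the study's other mouse RNA-seq and the identifiers are those of mouse genes. Whether counting used strand is not given in the sources used here. The commonest value under 10 in a culture was read as 1 sequenced fragment, which gives depths near 24.5 (KE replicate 2) to 34.1 (KE replicate 1) times 1000000 reads. Only 78.1% to 80.8% of values below 10 lay within 0.1 of a whole multiple, so no count test was run, and the precision of a value was judged from the spread between cultures.

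The linear model of limma 3.58.1 (R 4.3.3) compared log2(normalized count + 1) between groups, using a variance trend, for the 15280 genes with a mean of at least 10. Tests were two-sided, with Benjamini-Hochberg adjustment across these genes. A log2FC on this scale understates changes of low genes. The methods mention an adjustment for batches without naming any, so none was modelled. Named genes are the 10 members, Braf and genes of the fixed lists, with at least the 3 largest called changes without overlap in each, except for withheld genes, which are not reported here by name. The members and lists were chosen with earlier results of these data known. Positions, lengths and the windows before the canonical start came from Gencode vM39 on GRCm39, which gives canonical transcripts. The fit was tested on simulated data. Alternatives were other pseudocounts, filters and scalings, no variance trend, the replicate block and leaving out each culture.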

Additional observations from a re-analysis of the deposited data

How the results depend on the processing

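Over 14 alternatives, each of Bcl2l1, Bid, Bbc3 and Pmaip1 kept its call, with log2FC of 0.76 to 0.87, 0.80 to 0.85, 0.61 to 0.74 and 0.59 to 0.65, so 4 members were upregulated under every alternative. The 2 downregulated members, Bcl2 and Mcl1, were 0 without a variance trend and between 0 and 2 when 1 culture was left out, and the cause was not tested. Their log2FC stayed below 0, at -0.35 to -0.21 and -0.18 to -0.14. Bcl2l11, never called, reversed from -0.04 to 0.023 without KE replicate 2, and leaving out 1 culture gave -0.086 to 0.023. Bax, Bak1 and Bmf were not called under any alternative, with log2FC of -0.13 to -0.02, -0.14 to -0.05 and -0.39 to -0.08. Quantile normalization moved the median of all tested genes most, to 0.03. Adding the replicate block gave 8046 called genes, compared with 7844 without it, and changed no member's call. The labels do not say that a number marks a shared preparation. Deviations of same-numbered KE and NT cultures had r of 0.059, 0.066 and 0.065 across genes, each higher than with other numbers, which is a hint from the data and not the design. The alternatives for the 7 related lists were added after the data were seen, and gave 24 to 25 upregulated and 15 to 19 downregulated genes. Precision was lowest for Bmf, at no more than 62.4 normalized counts in any culture.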
